A study of Homo sapiens with 5 samples.

Results

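The genes described here encode catenins, the proteins that bind the inner ends of cadherins, and the proteins that tie cadherin complexes to actin. They were taken from a list of 10 genes: those with a named probe set in the deposited table were kept, and the value of a gene was the mean over its named probe sets. Of the 10, 4 were measured, out of 14812 named genes in all: JUP, ARVCF, PKP4 and VCL, each by 1 probe set. The other 6, CTNNA1, CTNNB1, CTNND1, CTNNAL1, CTNNBIP1 and AFDN, lacked a probe set under their name and were not analysed here.

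TE7 is a human cell line from an esophageal carcinoma. Of the clones compared, 3 were TE7 clones transduced with pMIRNA1-puro-CDH26, a construct that expresses the cadherin CDH26. The other 2 were TE7 clones transduced with pMIRNA1-puro-control. Each clone was grown from a single cell, and every clone of both groups was kept for 24 h in RPMI with 1.8 mM calcium before RNA was taken. Each clone was hybridised to 1 Affymetrix Gene 2.0 ST array, so a group mean covers 3 or 2 clones and a difference between groups includes differences between single-cell clones. The promoter that drives CDH26 in the construct is not given in the sources used here.

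In a cadherin complex, beta-catenin or its close relative plakoglobin binds the cadherin tail, and alpha-catenin joins either of them to actin filaments. A separate stretch of the tail binds p120-catenin and its relatives, which control how long cadherins stay at the surface. Vinculin is recruited to alpha-catenin when the junction is under tension, and afadin ties nectins, the partner adhesion receptors, to the same actin. Beta-catenin released from junctions can also act in the nucleus with TCF proteins as the output of Wnt signalling.

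The promoters of the 4 genes were matched by symbol in RefSeq (GRCh38.p14), which lists 6 windows for them. The 250 bases before the start are shown for VCL and PKP4, because these were the members with the smallest p-values and their differences had opposite signs; PKP4 has 2 listed windows. Capitals mark matches to the letters GGAATG (bound by TEAD factors) and GGGCGG (the GC box) on either strand; CTTTGAT, a TCF motif, and the CArG box of serum response factor were searched as well.
VCL, chr10:73997866-73998115, plus strand: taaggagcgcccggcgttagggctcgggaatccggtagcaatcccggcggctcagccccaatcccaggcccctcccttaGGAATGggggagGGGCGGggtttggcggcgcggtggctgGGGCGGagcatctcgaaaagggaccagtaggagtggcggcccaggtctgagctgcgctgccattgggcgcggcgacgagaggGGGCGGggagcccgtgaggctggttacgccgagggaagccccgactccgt
PKP4 first window, chr2:158456702-158456951, plus strand: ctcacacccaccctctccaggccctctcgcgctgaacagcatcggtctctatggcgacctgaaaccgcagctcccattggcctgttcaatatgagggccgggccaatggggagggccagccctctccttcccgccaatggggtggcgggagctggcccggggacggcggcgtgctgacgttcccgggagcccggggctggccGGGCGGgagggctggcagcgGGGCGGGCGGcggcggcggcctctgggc
PKP4 second window, chr2:158457643-158457892, plus strand: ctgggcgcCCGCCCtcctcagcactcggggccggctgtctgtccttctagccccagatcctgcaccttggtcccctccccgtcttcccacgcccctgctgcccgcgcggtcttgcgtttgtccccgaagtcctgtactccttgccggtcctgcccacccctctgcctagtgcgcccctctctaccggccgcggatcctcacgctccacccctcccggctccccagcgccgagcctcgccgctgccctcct

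The VCL window held 1 match to GGAATG, 171 to 166 bases before the start, and 3 GC boxes. The first match overlaps none of the others. GGAATG was present in 11.9% of the 35116 windows of the same length and the GC box in 42.6%, so neither is rare. The windows of JUP, ARVCF and PKP4 held 0 matches to GGAATG, and GC boxes numbered 2, 6 and 4 over all windows of these genes, with 1 overlapping pair in the first PKP4 window. CTTTGAT and the CArG box, present in 2.26% and 1.16% of all windows, had 0 matches in any of the 4 genes. These matches describe letters only; binding was not measured.

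Each value is a logarithm centred on the control mean of its probe set; it is read as log2, although the base is not recorded. The values hold no expression level, so neither the abundance of a member nor the squamous or columnar identity of TE7 could be checked from its markers. All differences below are the mean of the CDH26 clones minus the mean of the control clones, on the log2 scale. CDH26 itself was at 2.87, 3.01 and 2.63 in clones 1, 2 and 3 of the CDH26 construct, while the control clones were at 0.0067 and −0.0067, so the transcript followed the labels (difference 2.84 ± 0.13, SE; limma, adjusted p = 0.25). Across the 14812 genes, 0 passed an adjusted p of 0.05 (limma, Benjamini-Hochberg; 0%), and at an unadjusted p under 0.05 there were 520 higher genes (3.51%) and 593 lower ones (4%). Of the clones, control clones 1 and 2 were at least 1 log2 unit apart in 183 genes, and CDH26 clones 1 and 2 in 9. CDH26 clone 3 was that far from control clone 1 in 33 genes, fewer than from CDH26 clones 1 and 2 (75 and 62), and control clone 2 was that far from the CDH26 clones in 157 to 344.

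The adjusted p was 0.626 in limma for all 4 members, above the threshold of 0.05, so no member is called higher or lower. At the unadjusted threshold VCL lay lower and PKP4 higher, while JUP and ARVCF did not pass. With a CDH26 clone left out in turn, the unadjusted p of VCL in limma was never under 0.05. That of PKP4 was under it only without CDH26 clone 3 (limma, 0.0302), where 4.11% of all genes lay higher. JUP and ARVCF passed in none of these fits. Fits without a control clone are not used for this, since 1 control clone has no spread of its own. Under the trend and robust variance model in limma, the unadjusted p was 0.0504 for VCL and 0.0584 for PKP4. Which members pass at this threshold therefore depends on the clones included and on the variance model. The groups did not overlap in 3 of the 4 genes, VCL below (9.93% of all genes) and JUP and PKP4 above (8.98%), where 18.9% of all genes, or 35% of the 6857 genes with a different value on every array, had no overlap in either direction. The median difference over the 4 members was −0.04, beside 0 over all genes, or 0.041 when control clone 2 was left out and −0.112 when control clone 1 was. Because the members split by sign, that median describes no shared direction.

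**Figure D1:**
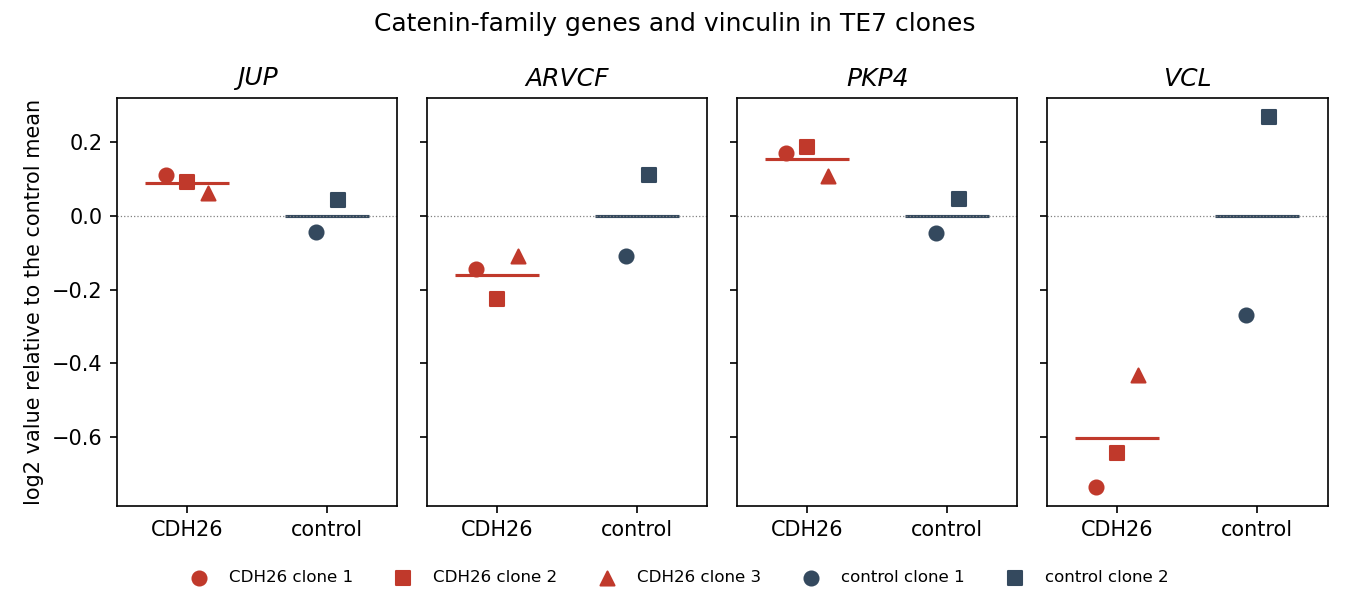
Log2 value relative to the control mean (y axis, shared by the panels) of JUP, ARVCF, PKP4 and VCL in each clone. Points are single clones, with CDH26 clones in red on the left and control clones in dark blue on the right, and horizontal lines are group means. VCL has the widest spread between the control clones, at −0.27 and 0.27, and all 3 CDH26 clones lie below both.

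Plakoglobin, encoded by JUP, is the catenin shared by adherens junctions and desmosomes. JUP was at 0.11, 0.09 and 0.06 in CDH26 clones 1, 2 and 3, and at −0.04 and 0.04 in control clones 1 and 2. No CDH26 clone was as low as either control clone, but CDH26 clone 3 and control clone 2 were only 0.019 apart. The difference was 0.088 ± 0.037 (SE; 95% interval −0.015 to 0.19), a 1.06-fold ratio, with an unadjusted p of 0.0757 and an adjusted p of 0.626 in limma. Across the 14812 genes, 43.5% had a larger absolute difference. Without control clone 1 the JUP difference was 0.045, and without control clone 2 it was 0.13.

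ARVCF and PKP4 encode relatives of p120-catenin that bind the same stretch of cadherin tails; PKP4, also called p0071, is found at desmosomes as well. ARVCF was at −0.14, −0.22 and −0.11 in CDH26 clones 1, 2 and 3, and at −0.11 and 0.11 in control clones 1 and 2. CDH26 clone 3 had the same value as control clone 1 (within 1e-05), so the groups touched, and the difference was −0.16 ± 0.084 (SE; 95% interval −0.39 to 0.08; limma, adjusted p = 0.626). Exact ties were common in the table, where only 46.3% of genes carried 5 distinct values. ARVCF differed by −0.27 without control clone 1 and by −0.049 without control clone 2.

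PKP4 was at 0.17, 0.19 and 0.11 in CDH26 clones 1, 2 and 3, and at −0.05 and 0.05 in control clones 1 and 2. The lowest CDH26 clone was 0.061 above the highest control clone, so the groups were separate but close. The difference was 0.15 ± 0.044 (SE; 95% interval 0.03 to 0.28), a 1.11-fold ratio, with an unadjusted p of 0.026 and an adjusted p of 0.626 in limma. PKP4 had the smallest unadjusted p of the 4 members in this fit, although 26.7% of all genes had a larger absolute difference. Among genes different on every array its unadjusted p in limma was 0.107, beside 0.0203 for VCL. The PKP4 difference stayed between 0.11 and 0.20 with each clone left out in turn.

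Vinculin, encoded by VCL, is the actin-binding protein that reinforces cadherin junctions under load and is also a core component of focal adhesions. VCL was at −0.74, −0.64 and −0.43 in CDH26 clones 1, 2 and 3, and at −0.27 and 0.27 in control clones 1 and 2. The groups did not overlap, and CDH26 clone 3, the highest of its group, was 0.16 below control clone 1. The difference was −0.60 ± 0.20 (SE; 95% interval −1.18 to −0.03), a ratio of 0.658, with an unadjusted p of 0.0433 and an adjusted p of 0.626 in limma. Among the 14812 genes, 379 had a larger absolute difference (2.56%).

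The control clones were themselves 0.54 apart in VCL, wider than the 0.16 between the nearest clones of the groups, and 5.49% of genes had a wider control gap. Leaving out control clone 2 gave a VCL difference of −0.33 and leaving out control clone 1 one of −0.87, with adjusted p of 0.558 and 0.145 in limma. With a CDH26 clone left out it ran from −0.69 to −0.54. A fit with a single control clone takes its residual spread from the CDH26 clones alone.

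**Figure D2:**
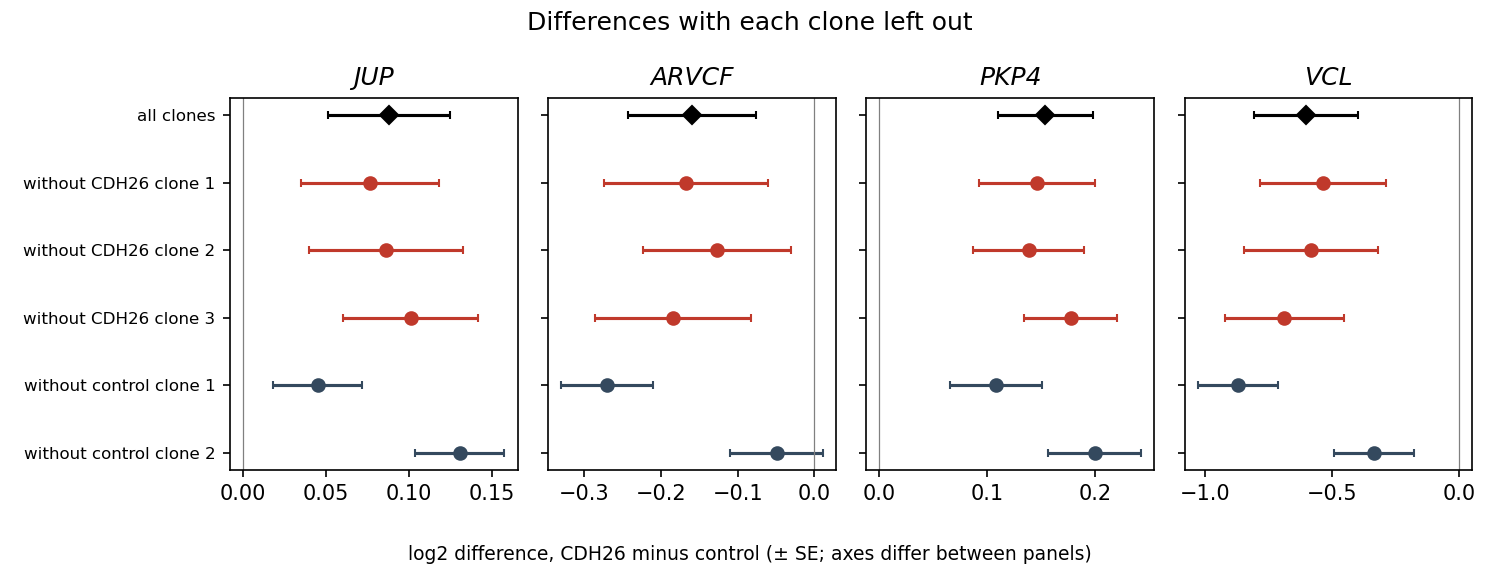
Log2 difference of each member, CDH26 minus control (x axis, its range differs between panels), with all clones (diamond) and with each clone left out in turn (circles; red where a CDH26 clone and dark blue where a control clone was left out); bars are the SE. Leaving out control clone 2 brings VCL to −0.33 and ARVCF to −0.049, and leaving out a CDH26 clone moves each gene less.

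By Euclidean distance over the 5 arrays, the genes nearest to VCL were SH2D4A at 0.0619, EIF5A2 at 0.0649 and TTC13 at 0.12 log2 units. SH2D4A was at −0.74, −0.59 and −0.45 in CDH26 clones 1, 2 and 3, and at −0.29 and 0.29 in control clones 1 and 2. Nearest to ARVCF were VIT, GALNT14 and MED26, at distances of 0.0234, 0.025 and 0.0286. None of these encodes a catenin or a vinculin relative.

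Actin-side partners of alpha-catenin, vinculin and afadin were measured for 22 of 35 listed genes. At an unadjusted p under 0.05, 5 lay lower and 0 higher, where 4% and 3.51% of all genes did; 0 passed the adjusted threshold. In all, 18 of the 22 had a lower mean in CDH26 clones, as had 7338 of all 14812 genes. The median difference was −0.10 beside 0 over all genes. Every CDH26 clone was below both control clones in 6 (9.93% of all genes) and above both in 1 (8.98%). The groups overlapped or tied in the other 15. CTTN, the cortical actin regulator cortactin, was at −0.26, −0.33 and −0.21 in CDH26 clones 1, 2 and 3, and at −0.0023 and 0.0023 in the control pair, a difference of −0.27 ± 0.043 (SE). DIAPH1, a formin that nucleates actin filaments, differed by −0.22 ± 0.059. The count of 5 became 10 without control clone 1 (where 9.95% of all genes lay lower) and was 5 without control clone 2 (6.58%). Leaving out CDH26 clone 1, 2 or 3 gave 2, 1 and 2, where 2.72%, 1.67% and 5.55% of all genes lay lower. The median became −0.04 when control clone 2 was left out and −0.15 when control clone 1 was.

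The other 3 genes of that count were named after their values were seen. WTIP, a LIM protein of the AJUBA family, was at −0.81, −0.91 and −0.49 in CDH26 clones 1, 2 and 3, and at −0.24 and 0.24 in control clones 1 and 2; its difference was −0.74 ± 0.21 (SE). ENAH, an actin filament elongation factor, differed by −0.38 ± 0.13 and TES, a LIM protein of focal adhesions, by −0.25 ± 0.071. In ENAH and TES, as in VCL and WTIP, the lower control clone was clone 1, and it lay above every CDH26 clone. In DIAPH1 the lower control clone was clone 2, and in CTTN the control clones were only 0.0045 apart.

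Relatives and receptors were sparsely covered. Of 7 other catenin-family genes 3 were measured; PKP1, a desmosomal plakophilin, was at 0.55, 0.64 and 0.26 in CDH26 clones 1, 2 and 3, and at 0.10 and −0.10 in control clones, a difference of 0.48 ± 0.15 (SE) with an unadjusted p of 0.0302. That p was between 0.074 and 0.161 in 4 of the 5 fits with a clone left out, the exception being without CDH26 clone 3. PKP3 differed by −0.14 ± 0.18 and turned to 0.09 without control clone 1. Of 13 cadherins and nectins that bind these proteins, only the 4 nectins were measured, so no classical cadherin enters the comparison. NECTIN1 differed by 0.22 ± 0.094 and NECTIN4 by 0.61 ± 0.32, and 0 of the 4 passed at an unadjusted p of 0.05. Without control clone 1 NECTIN1 was at 0.34 and NECTIN4 at 0.29, and without control clone 2 they were at 0.09 and 0.94.

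**Figure D3:**
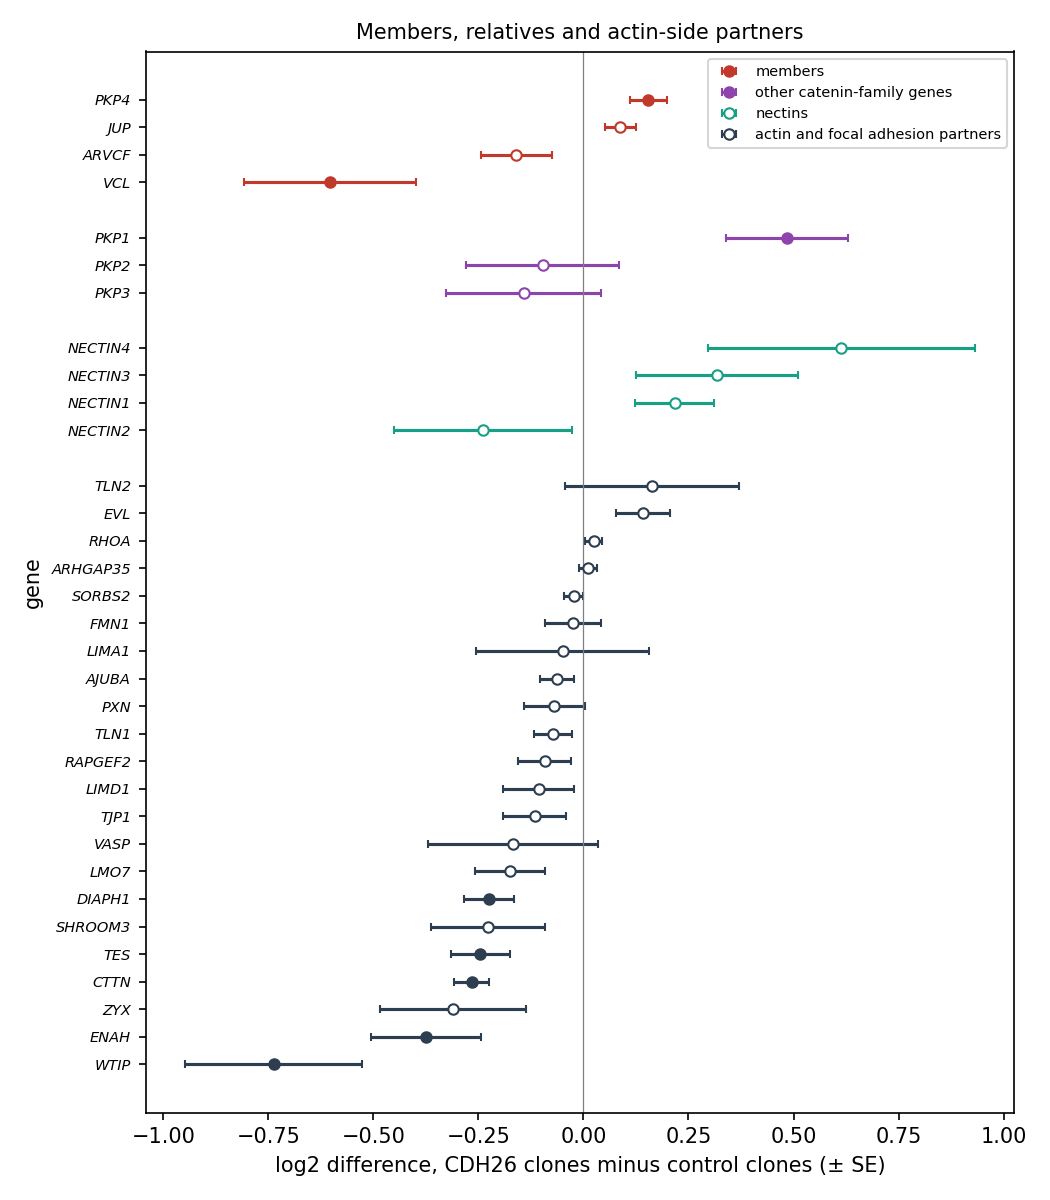
Log2 difference, CDH26 clones minus control clones (x axis), of the members and of 3 lists of relatives and partners (y axis, one gene per row); bars are the SE and filled points have an unadjusted p under 0.05. Actin-side partners lie mostly left of 0, down to −0.74 for WTIP. JUP, PKP4, PKP1 and 3 of the 4 nectins lie to the right.

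Genes that control beta-catenin turnover or act with it in the nucleus were measured for 18 of 27 listed. At an unadjusted p under 0.05, 1 of the 18 was higher and 1 lower, a number close to the 3.51% and 4% of all genes, and 0 passed the adjusted threshold. The median difference of the 18 was −0.053, or −0.035 when control clone 1 was left out and −0.023 when control clone 2 was. CREBBP, a histone acetyltransferase and coactivator, differed by −0.31 ± 0.062 (SE), with −0.27, −0.40 and −0.26 in CDH26 clones 1, 2 and 3 compared with 0.05 and −0.05 in the control pair. PYGO1, a nuclear partner of beta-catenin, differed by 0.52 ± 0.13 and was at 0.67, 0.59 and 0.30 in CDH26 clones 1, 2 and 3 compared with 0.03 and −0.03 in the control pair.

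Of 23 transcripts known to respond to beta-catenin and TCF, 20 were measured. At an unadjusted p under 0.05, 1 of the 20 was lower, DKK1, and 0 were higher, near the 4% and 3.51% of all genes. The mean was lower in 16 and higher in 3, beside 7338 lower and 7097 higher of all genes, and the median difference was −0.055. When control clone 1 was left out 4 were lower and 1 higher, where 9.95% and 10.5% of all genes were. DKK1, a secreted Wnt antagonist, was at −0.88, −0.57 and −0.54 in CDH26 clones 1, 2 and 3 and at 0.04 and −0.04 in control clones, a difference of −0.66 ± 0.13 (SE; limma, adjusted p = 0.626). CCND1, the cyclin D1 gene, differed by −0.62 ± 0.25, or by −0.38 without control clone 2. AXIN2, a negative regulator of the pathway and a common readout of it, differed by −0.0017 ± 0.017 (SE). Its value was the same in the 3 CDH26 clones and control clone 1, and LGR5 had the same value on every array. Both had an SE of 0.017, which comes almost wholly from the variance that limma borrows across genes. Whether either transcript was detected cannot be read from centred values, so these ties do not show an unchanged pathway. SOX9 had the widest control gap of the list, at −1.08 and 1.08 in control clones 1 and 2; AXIN2, LGR5 and SOX9 were picked out after their values were seen. Leaving out control clone 1 gave a list median of −0.23, and leaving out control clone 2 one of −0.0048.

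**Figure D4:**
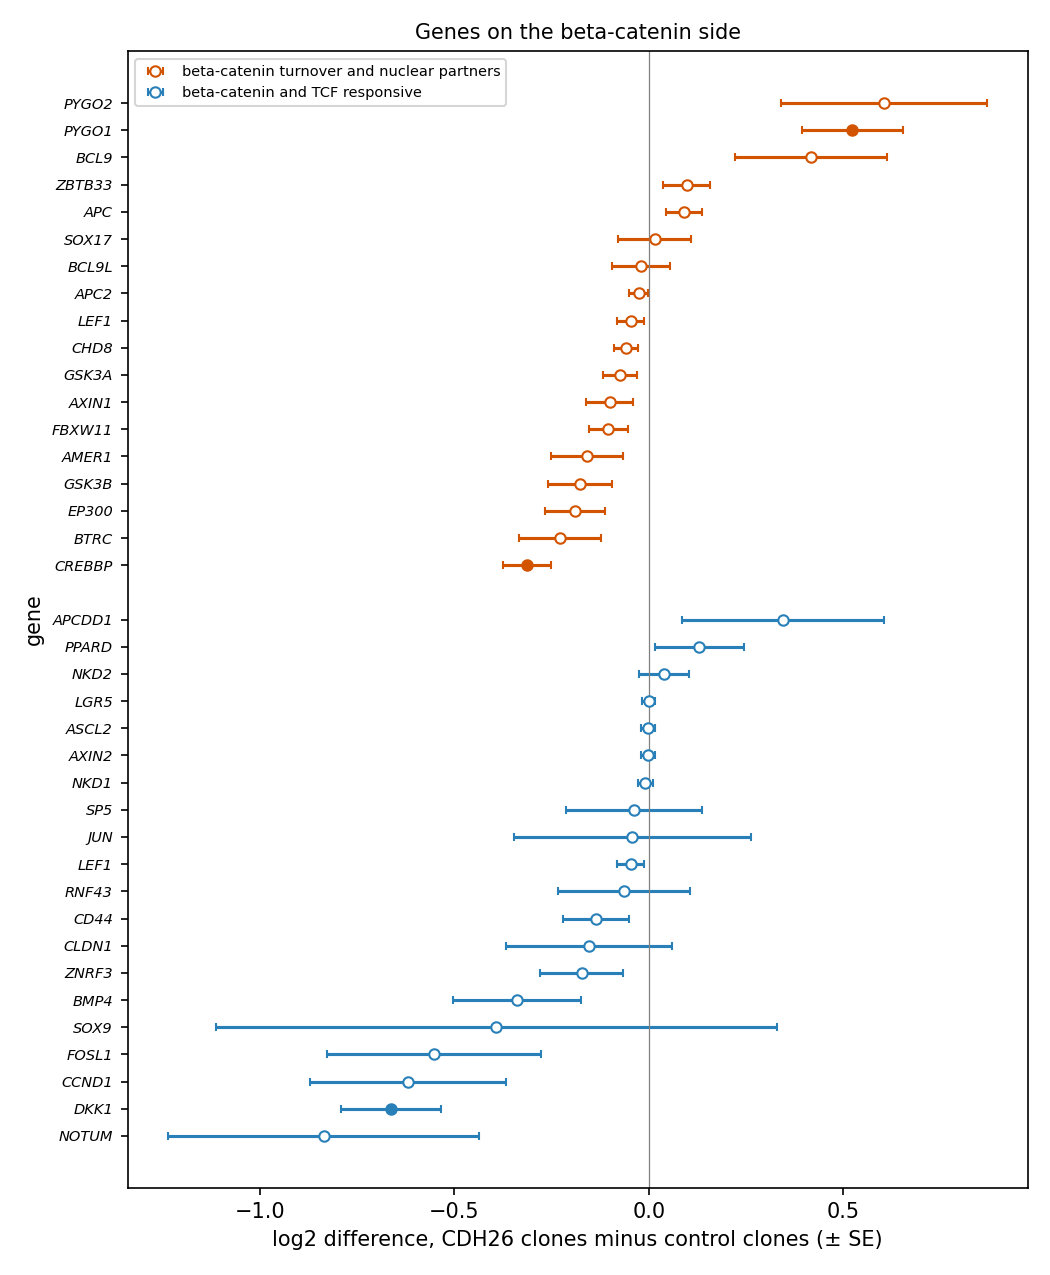
Log2 difference, CDH26 clones minus control clones (x axis), of genes of beta-catenin turnover and its nuclear partners and of transcripts that respond to beta-catenin and TCF (y axis, one gene per row); bars are the SE and filled points have an unadjusted p under 0.05. CREBBP, PYGO1 and DKK1 are the filled points, and LEF1 stands in both lists.

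Markers of epithelial type and of other cells were set beside these results. Of 7 squamous markers 5 were measured and all 5 had a higher mean in CDH26 clones, with medians of 0.72, 0.75 and 0.50 in CDH26 clones 1, 2 and 3 and of 0.24 and −0.24 in control clones 1 and 2. For columnar epithelium 5 of 6 markers were measured, with medians from −0.11 to −0.07 in CDH26 clones and of −0.05 and 0.05 in control clones. Fibroblast, leukocyte and endothelial markers were measured for 3 of 7, 3 of 6 and 3 of 5 genes, with median differences of 0.065, 0.014 and 0. Of all 14812 genes, 7097 had a higher mean. The groups were separate in 3 squamous markers and overlapped or tied in the other 2, KRT13 and KRT4. At an unadjusted p under 0.05 in limma, 2 squamous markers were higher, KRT14 and SFN, and 0 passed the adjusted threshold. SFN differed by 0.63 ± 0.11 (SE). KRT14 differed by 2.72 ± 0.43 (SE), LUM by 1.59 ± 0.42 and CD68 by 1.07 ± 0.33, each picked out as the largest of its own list. The other fibroblast markers, VIM and DCN, were at 0.065 and 0.022, and the other leukocyte markers, CD14 and LYZ, at −0.041 and 0.014. Which of these markers are near 0 in level cannot be read from centred values, and their part in the differences of the members was not tested.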

How the data were processed

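RNA of 5 clones was labelled with biotin and hybridised to Gene 2.0 ST arrays, per the labels' protocols. Per the submitters' processing notes, the arrays were processed in Affymetrix Expression Console; for its version and summarisation, and for the genome build, the answer is not given in the sources used here. The deposited log2 values (base assumed) are centred: in every row the 2 control values are equal and opposite (they sum to at most 1e-06 in size). Array medians were 0. A filter on dim genes was therefore not possible.

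The array annotation named 15835 of 44607 probe sets, each with 1 gene, and all 15835 names matched current RefSeq symbols. Values were averaged over the named probe sets of 651 genes that had several. Groups were taken from the titles.

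Groups were compared over all 14812 genes with limma 3.58.1 under R 4.3.3 (linear model and eBayes, group as the only term, two-sided, Benjamini-Hochberg, threshold 0.05), and the fit was tested on simulated data. With 3 and 2 clones the smallest exact permutation p is 0.1, and that test was not run. The p-values measure the spread between clones; the number of arrays limits the precision.

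The members and lists were chosen with earlier results of these data known. All measured members are named, and for each partner list the 2 genes with the smallest unadjusted p; other names are marked. For the 2 members with the largest absolute difference, the 3 genes nearest by Euclidean distance are named. Alternatives were array centring, variance model, weights for arrays, the replicate block, leaving out each clone, single probe sets, genes without ties, natural logarithms, an unmoderated model and an adjusted threshold of 0.1. Counts of partner genes with a clone left out were added after seeing the data. Figures used matplotlib 3.10.9.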

Additional observations from a re-analysis of the deposited data

How the results depend on the processing

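The differences of JUP, PKP4 and VCL kept their sign under all 14 alternatives and that of ARVCF under 13. ARVCF has tied values and dropped out where only genes different on every array were tested. Many alternatives could not change a sign. Array centring, the variance model, single probe sets, genes without ties and the unmoderated model left the differences as they were, and natural logarithms only rescale them. The sign could change only with array weights, the replicate block or a clone left out. No member passed the adjusted threshold in limma or the unmoderated model under any alternative. On the log2 scale VCL ran from −0.87 to −0.33, PKP4 from 0.11 to 0.20, JUP from 0.045 to 0.13 and ARVCF from −0.27 to −0.049. Read as natural logarithms, the VCL difference is −0.87 and that of PKP4 0.22. With each clone left out, 0 to 186 genes passed the adjusted threshold; the 186, 86 higher and 100 lower, were found without control clone 1. Among genes different on every array 1 passed, CDH26, at 2.84 with an adjusted p of 0.0106 in limma. The median over the members ran from −0.112 to 0.041 with each clone left out, and was 0.088 among the 3 members without ties, since ARVCF is not in it. PKP3 ran from −0.37 to 0.09 with each clone left out, turning sign without control clone 1. The cause was not tested for the dependence on the control clones.

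With the replicate number as a block, which leaves out CDH26 clone 3, VCL was at −0.69 (adjusted p = 0.648), PKP4 at 0.18, JUP at 0.10 and ARVCF at −0.18, and 0 genes passed in limma. With CDH26 clone 3 again left out of its group mean, deviations of CDH26 clone 1 and control clone 1 from their group means had r = −0.255 across genes. Genes are not independent replicates, and the clones share only a number. The dim-gene filter could not be run on centred values.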
